A study of Mus musculus with 20 samples.

Results

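The liver response to JQ1 at the end of dosing was measured in 3 libraries from JQ1-treated mice and 3 from vehicle control mice, which are 6 of the 20 libraries in the series. The animals were adult males of DBA/2J, an inbred mouse strain. JQ1-treated mice were injected intraperitoneally every day for 3 weeks with 50 mg/kg of JQ1, a bromodomain inhibitor of the BET family, and vehicle control mice with the carrier alone (DMSO in a hydroxypropyl-beta-cyclodextrin solution). All mice of both groups were 10 weeks old, and the labels name no engineered allele in either. Polyadenylated RNA of the liver was sequenced in bulk, and the comparison asks whether a drug aimed at BRDT in the testis also altered gene expression in liver. The 6 libraries were chosen by their labels, and no library from after drug withdrawal was used. The labels call them replicates without saying which animal each came from, so p-values measure the spread between these samples.

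BET proteins (among them BRD2, BRD3 and, in the testis, BRDT) bind acetylated histones at promoters and enhancers and help RNA polymerase II to leave the promoter. JQ1 occupies the acetyl-lysine pocket and displaces them from chromatin. Most RNA of the liver comes from hepatocytes, which secrete plasma proteins, make bile acids and glucose, and oxidise and conjugate drugs and hormones, with some enzymes concentrated near the central vein and others near the portal vein. Kupffer cells, sinusoidal endothelial cells, stellate cells, bile duct cells and a few lymphocytes and dendritic cells make up the remainder. In a bulk sample, fewer cells of a type and less RNA per cell cannot be told apart.

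The libraries held 12678283 to 17529910 reads assigned to genes (median 13795599), of which 16.7% to 19.2% came from the mitochondrial genome. Expression levels are in CPM, meaning reads after each library was brought to the same size and composition, in the order of replicates 1, 2 and 3. The defining hepatocyte markers were abundant in every library, with Alb at 38995, 41833 and 41616 CPM in the vehicle libraries and 51713, 47674 and 45266 CPM after JQ1, and Umod, a marker of the kidney tubule, was at 0.208 CPM or less in all of them. The kidney markers Kap and Slc34a1 were highest in vehicle replicate 2. Kap was at 0.582, 2.842 and 0.173 CPM in the vehicle and 0.207, 0.152 and 0.162 CPM in the JQ1 libraries. Slc34a1 was at 0.416 CPM in that vehicle library. Nphs1, the most abundant kidney marker, was highest in vehicle replicate 1 (2.33, 1.18 and 0.979 CPM against 1.94, 1.97 and 1.62 CPM after JQ1). The summed kidney markers were at 2.649 to 5.961 CPM in the vehicle and 2.751 to 2.886 CPM in the JQ1 libraries. Libraries of the same group correlated at 0.9712 to 0.9769 and libraries of different groups at 0.9653 to 0.9722. Vehicle replicate 3 stood apart in a few genes. Only there were the sperm chromatin genes Prm1 and Tnp1 above trace level (7.371 and 7.775 CPM), and the acute phase genes Saa1 and Saa2, chosen after their values were seen, were highest there. Saa1 was at 387, 46.4 and 1544 CPM in the vehicle libraries and at 65.3, 68.3 and 71.5 CPM after JQ1, so that vehicle replicate 2 lay below the JQ1 libraries and the other two above them, and it was not called (adjusted p = 0.426). The part of these libraries in the results was not tested, and calls lost without 1 library are given with its name.

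After 3 weeks of JQ1, 185 of the 13609 genes tested rose and 190 fell at an adjusted p below 0.05 (edgeR quasi-likelihood test), which is 1.36% and 1.4% of the genes tested and 2.76% in either direction. At an unadjusted p below 0.05 there were 1827. The shares of 1.36% higher and 1.4% lower are the background for each count of called list genes below. Most changes were small, with a median log2 fold change of 0.50 among the genes that rose and -0.71 among those that fell. A change of more than 2-fold was seen in 31 of the former and 72 of the latter. Protein-coding genes made up 333 of the 375. In all 375 the JQ1 libraries lay apart from the vehicle libraries, against 18.7% of all genes tested (8.88% higher and 9.79% lower). The first principal component held 31.36% of the variance and separated the groups, with the JQ1 libraries between 14.6 and 30.5 and the vehicle libraries between -25.9 and -18.7. Of the calls, 114 held when any 1 of the 6 libraries was left out, 42 higher and 72 lower. Without JQ1 replicate 2 the total was 153, without vehicle replicate 3 it was 160, and the number of higher genes was 114 without vehicle replicate 2. Counts scaled for transcript length from the TPM values (length-scaled counts), as the study made them, gave 167 calls, 76 higher and 91 lower. Below, the fits in which a named gene lost its call are given by the library left out ("without JQ1 2" is the fit without JQ1 replicate 2) or by these counts.

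**Figure D1:**
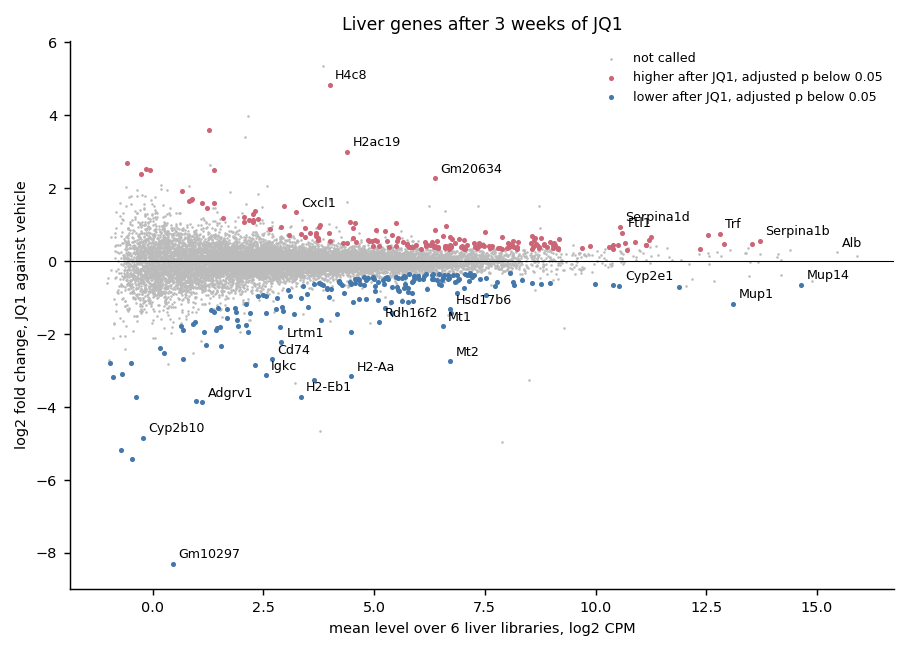
Each point is 1 of the 13609 genes tested in liver, with its mean level over the 6 libraries (log2 CPM) on the horizontal axis and its log2 fold change, JQ1 against vehicle, on the vertical axis. Genes at an adjusted p below 0.05 are coloured, 185 above and 190 below the line of no change.

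Genes that display peptides to helper T cells on MHC class II were among those that fell most. Of 10 listed genes 7 passed the filter on low counts, and 3 of these fell, against 1.4% of all genes tested. All 7 lay below vehicle, with a median of -2.68 against -0.003 over all genes tested. The filter can be passed through the vehicle group alone, so this count and median are not read as support. The promoters of both class II chain genes called are shown because the genes moved together and class II promoters are known for a shared layout, in which an X box bound by RFX proteins precedes a Y box bound by NF-Y, with the coactivator CIITA acting on both. Each line gives the 250 bases before the annotated start, from RefSeq on build GRCm38.p6, at chr17:34287824-34288073 on the minus strand for H2-Aa and chr17:34305617-34305866 on the plus strand for H2-Eb1. Capitals mark GCAAC, letters found in X boxes, followed by ATTGG, the reverse complement of CCAAT.
H2-Aa: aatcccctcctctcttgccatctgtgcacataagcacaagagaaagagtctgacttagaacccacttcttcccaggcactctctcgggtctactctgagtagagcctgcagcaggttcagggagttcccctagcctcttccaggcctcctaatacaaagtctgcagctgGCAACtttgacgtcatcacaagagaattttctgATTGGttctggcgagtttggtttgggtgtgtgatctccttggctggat
H2-Eb1: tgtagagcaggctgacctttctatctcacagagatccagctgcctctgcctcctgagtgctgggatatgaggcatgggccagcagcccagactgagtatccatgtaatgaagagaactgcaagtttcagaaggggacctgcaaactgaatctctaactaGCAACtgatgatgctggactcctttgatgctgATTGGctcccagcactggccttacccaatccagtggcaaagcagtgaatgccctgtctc
In H2-Aa the pair is separated by 28 bases and in H2-Eb1 by 27. Over 32536 promoter windows of the same length, searched on both strands, 29.7% held GCAAC, 33.8% held ATTGG and 487 (1.5%) held GCAAC followed by ATTGG on the same strand within 40 bases. The letters and the spacing were chosen after these promoters had been read, so the match is a description. The printed bases are those of the reference genome, and the promoters of the DBA/2J mice were not sequenced.

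H2-Aa (ENSMUSG00000036594), the class II alpha chain, was at 41.2, 26.8 and 53.2 CPM in the vehicle libraries and at 4.29, 5.47 and 3.88 CPM after JQ1. Every JQ1 library lay several-fold below the lowest vehicle library (log2 fold change -3.15 ± 0.28, adjusted p = 0.00122). The beta chain H2-Eb1 (ENSMUSG00000060586) was at 22.2, 9.22 and 25.2 CPM and 1.24, 1.44 and 1.62 CPM, again without overlap (log2 fold change -3.72 ± 0.46, adjusted p = 0.011). Cd74 (ENSMUSG00000024610), the invariant chain that escorts class II molecules, was at 12.7, 5.75 and 15.1 CPM and 2.0, 1.9 and 1.29 CPM (log2 fold change -2.68 ± 0.36, adjusted p = 0.00167). Vehicle replicate 2 was the lowest of the vehicle libraries in all 3 genes. The beta chain H2-Ab1 (-3.34 ± 0.58, adjusted p = 0.0633), the peptide loader H2-DMb1 (-2.52 ± 0.74, adjusted p = 0.144), Ciita (-1.44 ± 0.59, adjusted p = 0.289) and H2-DMa (-0.56 ± 0.54, adjusted p = 0.747) did not pass. Summed over class II genes and Cd74 the level was 100.3, 52.1 and 124 CPM in the vehicle libraries and 9.61, 12.4 and 11.4 CPM after JQ1. The edgeR call was lost for H2-Eb1 without JQ1 1, 2 or 3 (adjusted p 0.088 to 0.109).

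The immunoglobulin genes Igkc and Ighm, the chemokine gene Cxcl13 and the dendritic cell gene Cd207 fell. Of 26 listed lymphocyte genes 7 passed the filter on low counts and 2 of these fell, both of them immunoglobulin genes, which B cells and plasma cells transcribe. The filter can be passed through 1 group alone, as for Trbc2 (1.48 CPM in the vehicle and 0.577 CPM in the JQ1 group on average). The other 5 are therefore not read as a group. Cd79a, part of the B cell receptor, did not pass the filter and was at 0, 0.277 and 0.173 CPM in the vehicle and 0.346, 0.152 and 0.243 CPM in the JQ1 libraries. Jchain, of plasma cells, was not called (-0.22 ± 0.48, adjusted p = 0.9). Igkc (ENSMUSG00000076609), the kappa light chain constant region, was at 7.5, 16.3 and 7.89 CPM in the vehicle libraries and 1.45, 1.44 and 0.647 CPM after JQ1, with no overlap (log2 fold change -3.13 ± 0.38, adjusted p = 0.000679). The heavy chain Ighm went from 8.69 ± 4.91 CPM to 1.22 ± 0.57 CPM (SD, n = 3 each) (log2 fold change -2.84 ± 0.55, adjusted p = 0.042). Cxcl13, a chemokine that draws B cells, was at 2.91, 5.13 and 3.4 CPM and 0.277, 0.759 and 1.29 CPM (log2 fold change -2.31 ± 0.44, adjusted p = 0.00599), and Cd207, the langerin of a subset of dendritic cells, at 3.35, 3.33 and 1.73 CPM and 0.415, 0.228 and 0.647 CPM (log2 fold change -2.68 ± 0.49, adjusted p = 0.00402). The chemokine Ccl5, a product of T and NK cells, had a log2 fold change of -3.18 ± 0.79 (adjusted p = 0.035). The summed level of the lymphocyte markers was 31.95 to 51.29 CPM in the vehicle and 16.51 to 18.68 CPM in the JQ1 libraries. This sum includes Igkc and Ighm, so it repeats their falls and is not read as a fall of lymphocyte genes at large. The summed level of the Kupffer cell and macrophage markers overlapped between groups (360 to 531.4 and 385.7 to 443.1 CPM). In that list 1 of 21 genes fell, Mpeg1, the pore-forming protein perforin-2 (-0.60 ± 0.15, adjusted p = 0.0351), 15 lay below vehicle, and 3 were called as lower without vehicle replicate 2. The part of cell numbers in these differences was not tested. In other edgeR fits the call was lost for Ighm without JQ1 1, 2 or 3 or vehicle 3 (adjusted p 0.0957 to 0.252), Cxcl13 without JQ1 2 or with length-scaled counts (adjusted p 0.0541 to 0.0561), Ccl5 without any 1 library or with length-scaled counts (adjusted p 0.0852 to 0.144) and Mpeg1 without JQ1 1, 2 or 3 or vehicle 1 or 3 or with length-scaled counts (adjusted p 0.0543 to 0.226).

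Display on MHC class I, read by cytotoxic T cells, had 4 of 18 genes lower, against 1.4% of all genes tested. The non-classical class I gene H2-Q7 was at 9.24, 12.1 and 10.8 CPM in the vehicle libraries and 5.25, 3.95 and 4.37 CPM after JQ1 (log2 fold change -1.24 ± 0.20, adjusted p = 0.00117), and its neighbour H2-Q6, of which it is a near copy, changed by -1.40 ± 0.30 (adjusted p = 0.0145). The immunoproteasome subunit Psmb8 fell by less (log2 fold change -0.75 ± 0.15, adjusted p = 0.00702), and so did H2-T23 (-0.48 ± 0.11, adjusted p = 0.0323). Interferon-response genes, many of which share regulators with class I, had 0 of 30 called by edgeR in either direction (median -0.11). Cxcl1 (ENSMUSG00000029380), a chemokine that draws neutrophils, rose. It was at 5.24, 6.58 and 4.2 CPM in the vehicle libraries and 12.7, 11.8 and 16.3 CPM after JQ1, all 3 JQ1 libraries above the highest vehicle library (log2 fold change 1.35 ± 0.20, adjusted p = 0.000581). Neutrophil genes had 0 of 5 called. Calls by edgeR were lost for H2-Q6 without JQ1 1 or vehicle 3 or with length-scaled counts (adjusted p 0.054 to 0.125), H2-Q7 with length-scaled counts (adjusted p 0.0568), Psmb8 without vehicle 3 or with length-scaled counts (adjusted p 0.0721 to 0.318) and H2-T23 without JQ1 2 or 3 or vehicle 1 or 3 or with length-scaled counts (adjusted p 0.0742 to 0.177).

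Metallothioneins and a zinc importer fell together. Metallothioneins are small proteins that bind zinc and copper, and their genes respond to metals through MTF1 and to glucocorticoids. Mt2 (ENSMUSG00000031762) was at 168, 191 and 191 CPM in the vehicle libraries and 31.7, 21.3 and 28.9 CPM after JQ1, which is 183 ± 13.3 and 27.3 ± 5.37 CPM (SD, n = 3 each). The groups were far apart, and no other gene had a lower adjusted p (log2 fold change -2.74 ± 0.13, adjusted p = 1.31e-08). Mt1 (ENSMUSG00000031765) was at 132, 147 and 156 CPM and 45.4, 29.4 and 51.3 CPM (log2 fold change -1.79 ± 0.20, adjusted p = 0.00478), with JQ1 replicate 2 the lowest library in both genes. Slc39a4, the plasma membrane importer ZIP4, was at 53.8, 61.1 and 47.1 CPM and 19.8, 24.7 and 21.9 CPM (log2 fold change -1.29 ± 0.12, adjusted p = 6.44e-06). Its groups did not overlap either. These were 3 of the 7 list genes measured, and none of the other 4, among them the zinc exporter Slc30a1 (0.00 ± 0.12, adjusted p = 0.997), was called. The count of 3 was the same whichever library was left out. In a list of 16 measured targets of the glucocorticoid receptor, which holds Mt2 and not Mt1, Mt2 alone was called. Without JQ1 replicate 1 there were 3 lower, and without JQ1 replicate 3 there were 1 lower and 1 higher. The part of glucocorticoids in these falls was not tested.

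**Figure D2:**
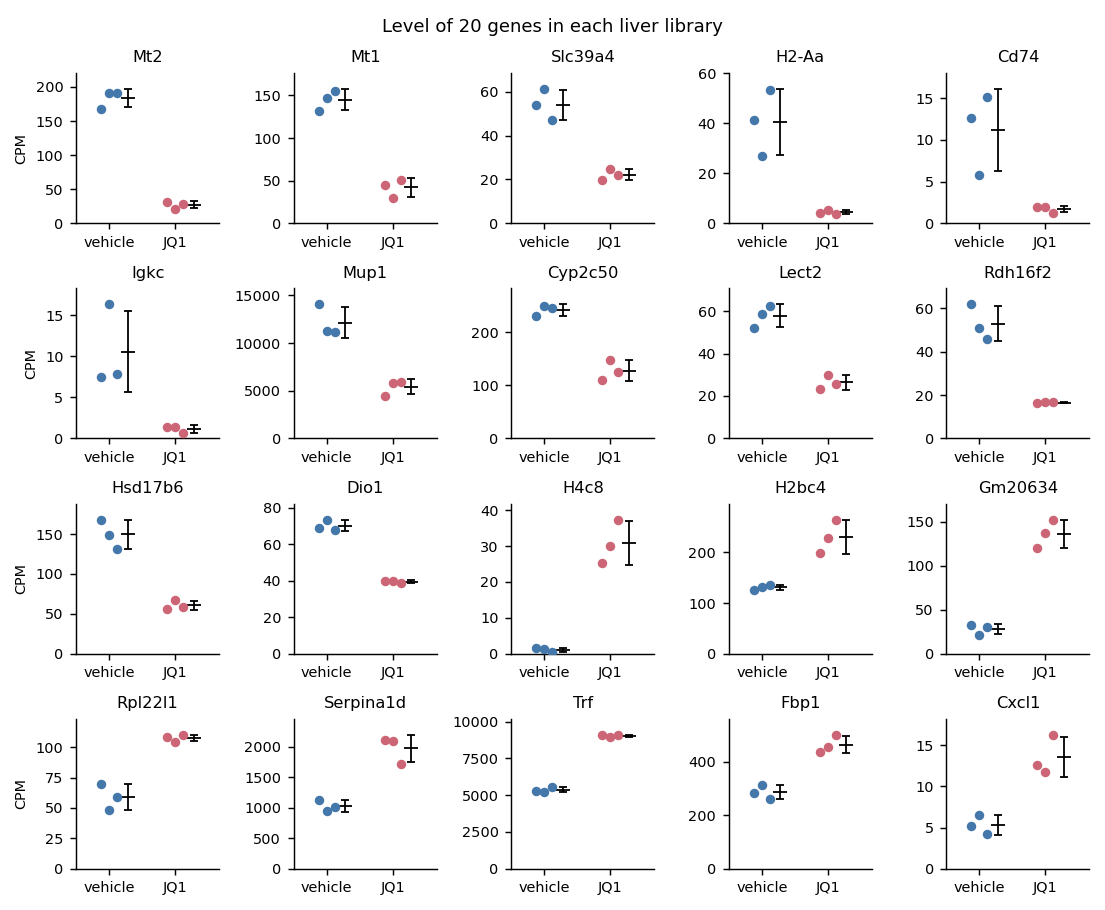
Points give the level of 20 genes in each of the 3 vehicle (blue) and 3 JQ1 (red) libraries (CPM, linear axes from 0), and bars the mean ± SD of each group. In every gene shown the groups do not overlap, the JQ1 libraries lying lower for genes such as Mt2, H2-Aa and Rdh16f2 and higher for genes such as H4c8, Trf and Fbp1.

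Several enzymes and transporters of the hepatocytes around the central vein fell. Of 24 pericentral genes measured 9 fell and 1 rose (median -0.44), against 1.4% and 1.36% of all genes. Lect2 (ENSMUSG00000021539), a secreted hepatokine and WNT target, was at 51.9, 58.6 and 62.6 CPM in the vehicle libraries and 23.4, 30.1 and 25.6 CPM after JQ1 (log2 fold change -1.13 ± 0.11, adjusted p = 1.43e-05). Cyp2e1 (ENSMUSG00000025479), the P450 that oxidises ethanol and acetaminophen, was at 1706, 1799.9 and 1979 CPM and 1069, 1159 and 1219 CPM (log2 fold change -0.67 ± 0.09, adjusted p = 0.000356). In both genes every JQ1 library lay below every vehicle library. Gulo, which makes vitamin C, also fell (-0.59 ± 0.09), while the retinal dehydrogenase Aldh1a1 rose (0.43 ± 0.11, adjusted p = 0.0431). The number of pericentral genes lower was between 7 and 9 with any 1 library left out. Of 24 periportal genes, the opposite zone, 3 fell and 0 rose (median -0.09). They were the mitochondrial aldehyde dehydrogenase Aldh1b1 (75.2, 87.5 and 76.5 CPM against 28.8, 38 and 45.3 CPM, log2 fold change -1.09 ± 0.14), the immunoglobulin transporter Pigr (-0.60 ± 0.09) and the arginine transporter Slc7a2 (-0.36 ± 0.10). Among them edgeR no longer called Slc7a2 without JQ1 1, 2 or 3 or vehicle 1 or 3 or with length-scaled counts (adjusted p 0.0548 to 0.204), and Aldh1a1 kept its call in 1 of the 6 fits without 1 library.

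The pericentral falls included most of the Cyp2c enzymes called, P450s that hydroxylate fatty acids, steroids and drugs. Cyp2c50 was at 229.8, 249.8 and 245 CPM in the vehicle libraries and 109, 148 and 125 CPM after JQ1 (log2 fold change -0.92 ± 0.10, adjusted p = 3.47e-05), and Cyp2c29 (-0.65 ± 0.10), Cyp2c54 (-0.76 ± 0.10) and Cyp2c37 (-1.10 ± 0.20) fell too. Reads of near-identical copies are divided by a model, so the family sum is less exposed to that division than a single gene. It was 3107, 3063 and 3087 CPM in the vehicle libraries and 2119, 2438 and 1997 CPM after JQ1, a ratio of 0.71 with no overlap, and 5 of 12 genes measured fell. Cyp2c40, named after its values were seen, was at 0.728, 0.832 and 0.518 CPM and 55.1, 27.4 and 2.35 CPM, apart but with a wide spread after JQ1, and was not called (adjusted p = 0.252). Cyp3a genes summed to 4168, 3791 and 3997 CPM in the vehicle libraries and 3372, 4521 and 4958 CPM after JQ1, with overlapping groups. Of the 5 tested, however, 2 were called as higher, among them Cyp3a44 (3.59 ± 0.74, adjusted p = 0.0411). Cyp4a genes, the fatty acid omega-hydroxylases, summed to 762, 884 and 693 CPM in the vehicle libraries and 1090.0, 1304 and 1383 CPM after JQ1, a ratio of 1.61. Of the 6 tested 2 rose, Cyp4a31 and Cyp4a32, at means of 3.96 and 2.5 CPM after JQ1. Genes that were not called therefore make up nearly all of the sum. No test was run on family sums. Of these genes edgeR lost Cyp2c37 without JQ1 1 or 3 or vehicle 1 or 2 (adjusted p 0.0573 to 0.22) and Cyp3a44 without JQ1 2 or vehicle 1, 2 or 3 or with length-scaled counts (adjusted p 0.0561 to 0.205). It also lost Cyp4a31 without JQ1 2 or vehicle 2 or with length-scaled counts (adjusted p 0.0503 to 0.055) and Cyp4a32 without JQ1 1, 2 or 3 or vehicle 2 or 3 (adjusted p 0.0507 to 0.171).

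Genes under the xenobiotic receptors CAR and PXR moved both ways, 4 higher and 5 lower of 23, against 1.36% and 1.4% of all genes tested. Nr1i3 (ENSMUSG00000005677), which encodes CAR itself, was at 32.6, 38 and 30.8 CPM in the vehicle libraries and 13.4, 16 and 19.99 CPM after JQ1, without overlap (log2 fold change -1.04 ± 0.14, adjusted p = 0.000343). Cyp2b10, the target by which CAR activity is often read, held 74 reads over the 3 vehicle libraries and 2 over the 3 JQ1 libraries, a ratio of 32.5 (95% interval 8.68 to 273, counting error only). It also passed the test (adjusted p = 0.00402). The glutathione transferase Gstt1 (-0.88 ± 0.09) and Cyp2c55 (-1.95 ± 0.37, adjusted p = 0.0095) fell. Por, the electron donor of the P450s, went up from 57.6, 83 and 74.2 CPM to 106, 115 and 125 CPM (0.69 ± 0.12), and the aldehyde dehydrogenase Aldh1a7 rose as well (0.62 ± 0.09). Targets of the aryl hydrocarbon receptor had 0 of 5 called by edgeR. Cyp2b10 and Nr1i3 kept their call in every fit without 1 library, and edgeR lost Cyp2c55 without JQ1 1 or 2 or vehicle 3 or with length-scaled counts (adjusted p 0.0523 to 0.0813).

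Conjugating enzymes, which attach sugar or sulfate to hormones and drugs, had 7 of 17 genes lower and 1 higher (median -0.33). Over all genes tested the shares were 1.4% and 1.36%. The sulfotransferase Sult5a1 (ENSMUSG00000000739) was at 6.55, 10.5 and 8.75 CPM in the vehicle libraries and 2.28, 3.65 and 3.72 CPM after JQ1 (log2 fold change -1.42 ± 0.25, adjusted p = 0.00332). Ugt3a1 (ENSMUSG00000072664), a glycosyltransferase, was at 73.7, 77.2 and 71.2 CPM and 28.8, 40.7 and 32.8 CPM (log2 fold change -1.12 ± 0.11, adjusted p = 1.74e-05), and neither gene showed overlap. Ugt2b1 fell by less (-0.65 ± 0.09), while the sum over the Ugt2b family was 1463, 1424 and 1526 CPM in the vehicle libraries and 1251, 1451 and 1539 CPM after JQ1 and overlapped. The 1 rise was Ugt1a5 (1.16 ± 0.28). With any 1 library left out 3 to 5 genes of the list were lower by edgeR, and the call was lost for Ugt1a5 without JQ1 2 or vehicle 1 or 2 or with length-scaled counts (adjusted p 0.0945 to 0.229).

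Short-chain dehydrogenases that act on retinol and steroids included 2 of the 10 lowest p-values. Rdh16f2 (ENSMUSG00000074639), of the retinol dehydrogenase family, was at 61.8, 51.2 and 45.8 CPM in the vehicle libraries and 16.5, 16.6 and 16.6 CPM after JQ1. The JQ1 libraries were nearly equal and far below the lowest vehicle library (log2 fold change -1.67 ± 0.12, adjusted p = 2.57e-07). Hsd17b6 (ENSMUSG00000025396), which oxidises androgens and retinol, was at 168, 149 and 132 CPM and 56.4, 67 and 57.9 CPM (log2 fold change -1.31 ± 0.10, adjusted p = 7.96e-07). The deiodinase Dio1 (ENSMUSG00000034785), which turns thyroxine into its active form, was at 69.1, 73.5 and 68 CPM and 39.96, 39.7 and 38.6 CPM, with little spread within either group (log2 fold change -0.83 ± 0.09, adjusted p = 2.88e-05). Of 25 retinoid and thyroid genes 3 fell and 3 rose, with 19 of 25 below vehicle (median -0.18). The hormone carriers in plasma parted, Serpina7 (thyroxine-binding globulin) falling (-0.73 ± 0.15) and Ttr (transthyretin) rising (0.46 ± 0.09). The steroid hydroxylase Cyp17a1, low in male liver, fell from 2.05 ± 1.7 CPM to 0.348 ± 0.106 CPM (SD, n = 3 each) (log2 fold change -2.52 ± 0.63, adjusted p = 0.0358). The calls that edgeR did not keep were Serpina7 without JQ1 2 or vehicle 3 or with length-scaled counts (adjusted p 0.0731 to 0.0914), Ttr without JQ1 2 or vehicle 3 (adjusted p 0.0576 to 0.062) and Cyp17a1 without JQ1 1, 2 or 3 or vehicle 2 or with length-scaled counts (adjusted p 0.107 to 0.355).

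**Figure D3:**
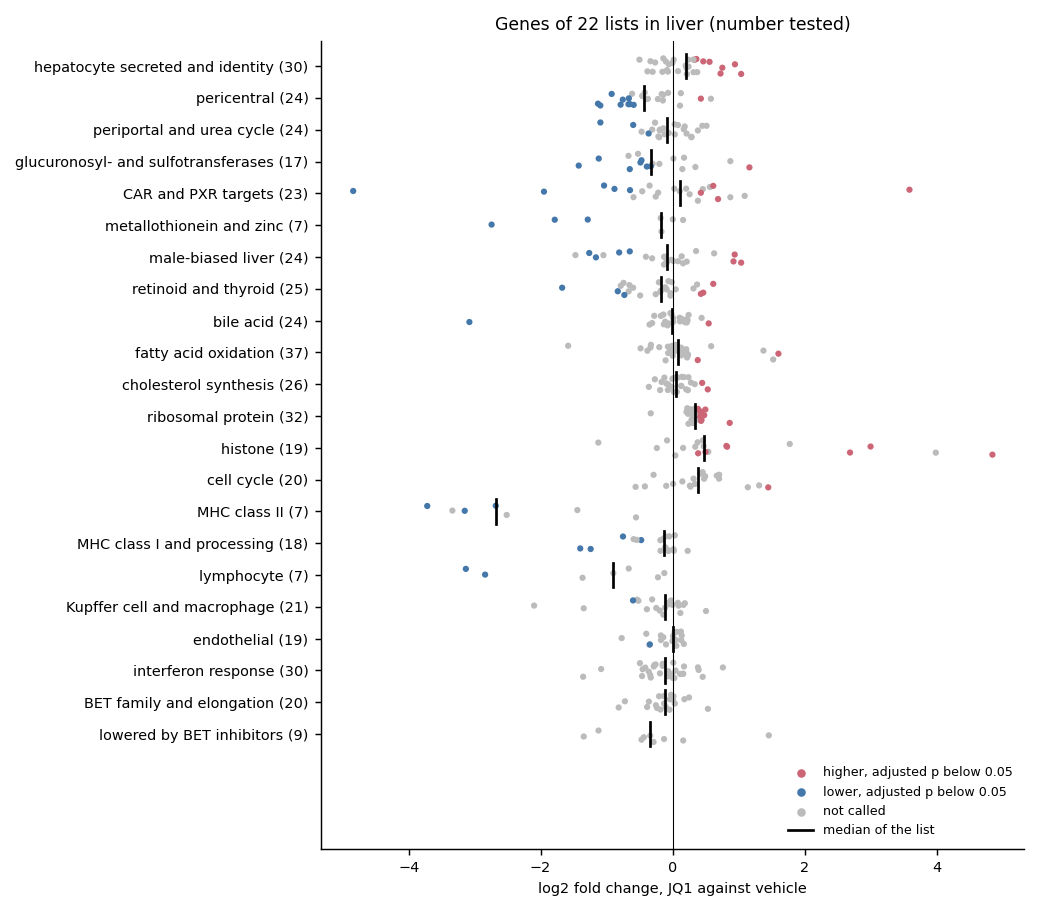
Each point is 1 measured gene of a list, placed by its log2 fold change (JQ1 against vehicle), with the number of genes tested in brackets, coloured where the adjusted p was below 0.05, and the bar is the median of the list. Pericentral genes (9 of 24 lower), conjugating enzymes (7 of 17 lower) and MHC class II (3 of 7 lower) lie to the left, and ribosomal protein genes (14 of 32 higher), histone genes (7 of 19 higher) and secreted hepatocyte proteins (8 of 30 higher) to the right. Over all genes tested 1.36% were higher and 1.4% lower.

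Major urinary proteins, pheromone carriers that the male liver makes in bulk under pulses of growth hormone, were lower. Mup1 (ENSMUSG00000078683) was at 14049, 11258 and 11114 CPM in the vehicle libraries and 4499, 5832 and 5936 CPM after JQ1, the groups well apart (log2 fold change -1.16 ± 0.12, adjusted p = 4.19e-05). Mup14 (ENSMUSG00000073830) was at 33013, 28756 and 31716 CPM and 16821, 20911 and 21869 CPM (log2 fold change -0.65 ± 0.10, adjusted p = 0.00133), and Mup11 fell too (-0.64 ± 0.13). Mup genes are near copies of each other, and their reads are divided among them by a model. The sum over the 20 Mup genes with reads was 148134, 109634 and 149820.0 CPM in the vehicle libraries and 72513, 98067 and 109056 CPM after JQ1, a ratio of 0.69. Of the 18 tested 4 fell. The groups did not overlap, with JQ1 replicate 3 just below vehicle replicate 2. Male-biased liver genes as a list had 4 of 24 lower and 3 higher (median -0.09). Beside Mup1 and Ugt2b1 the falls were the secreted serpin Serpina12 (15.4, 11.4 and 21.1 CPM against 6.43, 5.77 and 7.85 CPM, log2 fold change -1.26 ± 0.21) and Cyp2u1 (-0.81 ± 0.12). The rises were Serpina1e (1.04 ± 0.21), the proteoglycan Cspg5 (0.94 ± 0.16) and the complement regulator Susd4 (0.92 ± 0.13). Female-biased genes had 1 of 13 higher (Cyp3a44) and 3 lower (Rdh16f2, Cyp17a1 and Vldlr). Fits by edgeR lost Mup11 without JQ1 2 or vehicle 1 or 3 or with length-scaled counts (adjusted p 0.0544 to 0.0895), Serpina1e without JQ1 2 or vehicle 1, 2 or 3 or with length-scaled counts (adjusted p 0.0561 to 0.184), Cspg5 with length-scaled counts (adjusted p 0.0734) and Vldlr without JQ1 1, 2 or 3 or vehicle 1 or 2 or with length-scaled counts (adjusted p 0.0928 to 0.124).

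Several secreted plasma proteins of hepatocytes rose. In the list of secreted and defining hepatocyte genes 8 of 30 rose and 0 fell (median 0.20), against 1.36% and 1.4% of all genes tested. With any 1 library left out 4 to 9 were higher. Trf (ENSMUSG00000032554), transferrin, the iron carrier of plasma, was at 5311, 5206 and 5542 CPM in the vehicle libraries and 9078, 8932 and 9054 CPM after JQ1 (log2 fold change 0.75 ± 0.09, adjusted p = 4.19e-05). The JQ1 libraries agreed closely and all lay above the vehicle libraries. Serpina1d (ENSMUSG00000071177), of the alpha-1-antitrypsin genes that restrain neutrophil elastase, was at 1128, 939 and 1005 CPM and 2107, 2092 and 1711 CPM (log2 fold change 0.94 ± 0.10, adjusted p = 2.82e-05), and Serpina1a (0.73 ± 0.09) and Serpina1b (0.56 ± 0.09) rose with it. The 5 Serpina1 copies summed to 26713, 25272 and 26407 CPM in the vehicle libraries and 41084, 38254 and 34810.0 CPM after JQ1, a ratio of 1.46 without overlap. Ahsg, fetuin-A (0.33 ± 0.09), and Apob, the backbone of very-low-density lipoprotein (0.36 ± 0.09), rose by less. Albumin did not pass (0.24 ± 0.09, adjusted p = 0.203), nor did Apoa1 (0.20 ± 0.09, adjusted p = 0.324). The summed level of the hepatocyte markers was 117600 to 120300 CPM in the vehicle and 144000 to 155800 CPM in the JQ1 libraries. This sum includes Trf and the Serpina1 genes, of which 4 were called. It repeats their rises and is not read as a rise of hepatocyte genes at large. In the list 18 genes lay above vehicle and 12 below. Not kept by edgeR were Ahsg without JQ1 1 or 2 or vehicle 1, 2 or 3 or with length-scaled counts (adjusted p 0.054 to 0.231) and Apob without JQ1 2 or 3 or vehicle 1, 2 or 3 or with length-scaled counts (adjusted p 0.0728 to 0.279).

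Beside transferrin, the iron storage gene Ftl1 (ENSMUSG00000050708), ferritin light chain, rose from 1263, 1068 and 1078 CPM to 1552, 2051 and 2262 CPM (log2 fold change 0.78 ± 0.13, adjusted p = 0.00333). With its near copy Ftl1-ps1 the sum was 3205, 2932 and 2924 CPM in the vehicle libraries and 3832, 5019 and 5480.0 CPM after JQ1. These were the 2 genes called among 16 of iron handling. Hamp2, a hepcidin copy named after its values were seen, was at 762, 1262 and 926 CPM in the vehicle and 185, 203 and 436 CPM in the JQ1 libraries, which did not overlap, and was not called (adjusted p = 0.201). Complement had 1 of 26 genes higher and 2 lower, with C3 (0.52 ± 0.10) against C1ra (-0.46 ± 0.10) among them, and coagulation 2 of 23 higher and 1 lower, with fibrinogen gamma, Fgg (0.45 ± 0.10), against factor IX, F9 (-0.37 ± 0.09). Over all genes tested 1.36% rose and 1.4% fell. Acute phase proteins had 2 of 25 higher, Lbp, which binds bacterial lipopolysaccharide (0.56 ± 0.12), and Serpina3k (0.47 ± 0.09). Without vehicle replicate 3 the number was 0, and without vehicle replicate 2 it was 2 higher and 2 lower. Apart from Trf and Ftl1 these calls were fragile in edgeR, which lost C3 without JQ1 2 (adjusted p 0.0552), C1ra without JQ1 1 or 2 or vehicle 1 or 3 or with length-scaled counts (adjusted p 0.0568 to 0.124), Fgg without JQ1 2 or vehicle 2 or 3 or with length-scaled counts (adjusted p 0.0638 to 0.136), F9 without JQ1 2 or 3 or vehicle 1, 2 or 3 or with length-scaled counts (adjusted p 0.078 to 0.138), Lbp without JQ1 1 or vehicle 1 or 3 or with length-scaled counts (adjusted p 0.0654 to 0.122) and Serpina3k without JQ1 2 or vehicle 3 (adjusted p 0.0668 to 0.0702).

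**Figure D4:**
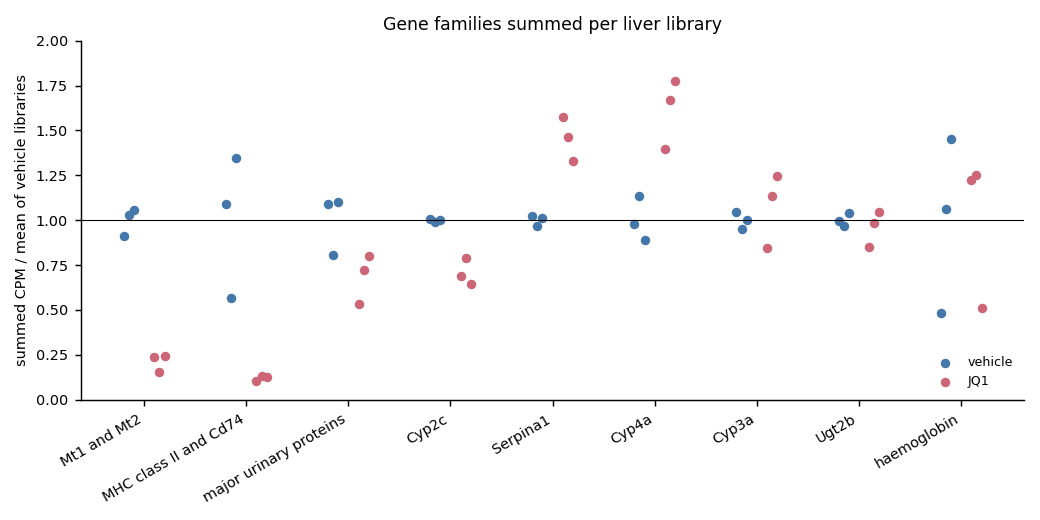
Points give the summed CPM of gene families in each vehicle (blue) and JQ1 (red) library, divided by the mean of the vehicle libraries, whose level is the line at 1. After JQ1 the metallothionein and class II sums lie near 0.21 and 0.12, the Mup and Cyp2c sums near 0.69 and 0.71 and the Serpina1 and Cyp4a sums near 1.46 and 1.61, while the groups overlap in Cyp3a, Ugt2b and haemoglobin.

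Histone genes held the largest rise among the genes called. H4c8 (ENSMUSG00000060981), a gene for histone H4, was at 1.6, 1.18 and 0.518 CPM in the vehicle libraries and 25.2, 30.1 and 37.4 CPM after JQ1. The lowest JQ1 library exceeded the highest vehicle library more than 10-fold (log2 fold change 4.85 ± 0.27, adjusted p = 9.88e-07). H2ac19 (ENSMUSG00000063954), for histone H2A, was at 7.42, 3.88 and 2.82 CPM and 28.2, 40.2 and 42.9 CPM (log2 fold change 3.00 ± 0.37, adjusted p = 0.0173), H2bc4 (ENSMUSG00000018102), for histone H2B, at 125, 132 and 136 CPM and 198, 228 and 265 CPM (log2 fold change 0.81 ± 0.10, adjusted p = 0.00012), and the linker histone H1f2 (ENSMUSG00000036181) at 24, 25.9 and 32.4 CPM and 42, 47.5 and 57 CPM (log2 fold change 0.82 ± 0.13, adjusted p = 0.00172). No group overlapped in these 4 genes. H2az1, a variant histone found at promoters, rose by 0.50 ± 0.09. In the list 7 of 19 genes rose and 0 fell (median 0.47), against 1.36% and 1.4% of all genes tested. With any 1 library left out 4 to 6 were higher. Most histone mRNAs end in a stem-loop and not in a poly(A) tail, while these libraries were made from polyadenylated RNA, so the values cover polyadenylated transcripts. H4c8 and H2ac19 each have 1 annotated transcript, and copies of one histone share much of their coding sequence. Of 20 genes of dividing cells the helicase Hells alone was called as higher (1.45 ± 0.36, adjusted p = 0.0325), with a median of 0.38 over the list. The long non-coding RNA gene Gm20634 (ENSMUSG00000070392) rose from 32.5, 21.7 and 30.7 CPM to 120.2, 138 and 152 CPM (log2 fold change 2.27 ± 0.14, adjusted p = 6.44e-06). Calls not kept in edgeR were H2ac19 without JQ1 2 or 3 or vehicle 2 (adjusted p 0.0555 to 0.0994) and Hells without JQ1 2 or 3 or vehicle 1, 2 or 3 or with length-scaled counts (adjusted p 0.0641 to 0.176).

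H2bc4 and H1f2 also belong to the genes raised by BET inhibitors in many cell types. That list had 3 of 11 higher and 1 lower, the third rise being Cdkn1a, the p21 cell cycle inhibitor (0.71 ± 0.16, adjusted p = 0.0183), and the fall Txnip, a brake on glucose uptake (-0.47 ± 0.10, adjusted p = 0.0127). Hexim1, which sequesters the elongation kinase P-TEFb and often marks BET inhibition, was at 45.9, 38.1 and 47.2 CPM in the vehicle libraries and 45, 40.2 and 34.6 CPM after JQ1, and the groups overlapped (log2 fold change -0.13 ± 0.12, adjusted p = 0.712). Genes lowered by BET inhibitors had 0 of 9 called by edgeR (median -0.34), and Myc, the best known of them in dividing cells, was at 3.28, 0.554 and 0.461 CPM and 2.56, 6.3 and 2.67 CPM (log2 fold change 1.46 ± 0.82, adjusted p = 0.533). Of the drug's own targets, Brd2 was at 109, 83.7 and 91.5 CPM and 83.2, 73.4 and 64.3 CPM (log2 fold change -0.36 ± 0.11, adjusted p = 0.108) and Brd3 at 76.2, 77.6 and 66.5 CPM and 84.9, 69.5 and 70.6 CPM (log2 fold change 0.03 ± 0.10, adjusted p = 0.933), and neither was called. Brdt, the testis member, was low in every library, at 2.26, 1.59 and 2.88 CPM and 2.7, 2.66 and 0.89 CPM. The list of BET proteins and elongation partners had 0 of 20 called (median -0.12). Smarca5 (0.04 ± 0.09) and Gpx4 (0.28 ± 0.13) were not called either. Neither of the single changes was firm in edgeR, which lost Cdkn1a without JQ1 1 or 2 or vehicle 3 or with length-scaled counts (adjusted p 0.0883 to 0.41) and Txnip without JQ1 2 or vehicle 2 or 3 or with length-scaled counts (adjusted p 0.0638 to 0.77). With length-scaled counts Cdkn1a was at 0.51 and Txnip at -0.12.

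Many cytosolic ribosomal protein genes were higher by small amounts. Of the 81 measured 38 rose, 0 fell and 43 were not called, where 1.36% of all genes tested rose and 1.4% fell. Above vehicle lay 79, and in 71 all JQ1 libraries lay above all vehicle libraries, against 8.88% of all genes. The median log2 fold change was 0.34. Their summed CPM, written as a percentage, was 2.24%, 1.95% and 2.08% in the vehicle libraries and 2.57%, 2.7% and 2.71% after JQ1. The lowest JQ1 library thus stood above the highest vehicle library. These percentages are scaled for library size and composition and are not plain shares of reads. Rpl22l1 (ENSMUSG00000039221), a paralogue of Rpl22, was at 69.4, 48.6 and 59.1 CPM and 108, 104 and 109.9 CPM (log2 fold change 0.86 ± 0.11, adjusted p = 0.00017), and Rpl7a (0.48 ± 0.09) and Rpl32 (0.44 ± 0.08) rose by less. The calls were fragile, with 6 genes called in every fit without 1 library and 6 to 43 called in each. There were 6 without JQ1 replicate 2, 10 without vehicle replicate 3 and 17 without vehicle replicate 2. Here edgeR lost Rpl7a without JQ1 2 (adjusted p 0.0534) and Rpl32 without JQ1 2 or vehicle 3 (adjusted p 0.0577 to 0.0579). Transcript length moved with the result. The median ribosomal protein transcript was 775 bases long, and 56 of the 81 were no longer than 1000. Among other genes the median log2 fold change was 0.05 where the transcript was at most 600 bases long and -0.02 above 4000, and the share called as higher was 2.81% and 0.558%. The part of length in the ribosomal values was not tested. Genes of the respiratory chain encoded in the nucleus had 0 of 28 called by edgeR (median 0.08), and of the 13 genes of the mitochondrial genome mt-Nd3 alone was called (0.43 ± 0.10, adjusted p = 0.0196).

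In lipid and sugar metabolism single genes changed. Fbp1 (ENSMUSG00000069805), fructose-1,6-bisphosphatase of gluconeogenesis, was at 285, 314 and 262 CPM in the vehicle libraries and 438, 455 and 502 CPM after JQ1 (log2 fold change 0.69 ± 0.09, adjusted p = 0.0003). Acss2, which makes acetyl-CoA from acetate, went from 75.2, 95 and 75.3 CPM to 116, 151 and 121 CPM (log2 fold change 0.66 ± 0.12, adjusted p = 0.00464), both genes without overlap. Among 24 genes of fatty acid synthesis Acss2 rose while Srebf1, the regulator of the pathway (-0.51 ± 0.11), and Pklr, liver pyruvate kinase (-0.76 ± 0.16), fell. Fatty acid oxidation under PPARA had 2 of 37 higher, among them Cyp4a31 (1.60 ± 0.34), and cholesterol synthesis 2 of 26, among them Lss (0.53 ± 0.13). Cyp7a1 (ENSMUSG00000028240), the rate-limiting enzyme of bile acid synthesis, was at 70.2, 57.1 and 81.4 CPM and 95.3, 106 and 104 CPM (log2 fold change 0.55 ± 0.11, adjusted p = 0.0112), and Cyp39a1, which hydroxylates an oxysterol on a side route, was lower (-3.08 ± 0.80, adjusted p = 0.0467). Lcat, which esterifies cholesterol in plasma, fell (-0.44 ± 0.09), and the taurine enzyme Csad (ENSMUSG00000023044) rose from 309.8, 269 and 367 CPM to 490.4, 425 and 490.0 CPM (log2 fold change 0.57 ± 0.11, adjusted p = 0.0057). The carbonic anhydrase Car3, abundant in male liver and in fat, fell from 4870.0, 3819 and 5408 CPM to 2498, 3053 and 3081 CPM (-0.71 ± 0.12). Fbp1, Lcat and Car3 kept their call in all these fits. Lost by edgeR were Acss2 with length-scaled counts (adjusted p 0.0529), Csad with length-scaled counts (adjusted p 0.0936), Cyp7a1 without JQ1 2 or with length-scaled counts (adjusted p 0.0897 to 0.876), Cyp39a1 without JQ1 2 or 3 or vehicle 1, 2 or 3 or with length-scaled counts (adjusted p 0.0775 to 0.267) and Cyp4a31 without JQ1 2 or vehicle 2 or with length-scaled counts (adjusted p 0.0503 to 0.055), and also Srebf1 without JQ1 2 or 3 or vehicle 2 or 3 or with length-scaled counts (adjusted p 0.0734 to 0.169), Pklr without JQ1 1 or 3 or vehicle 2 or with length-scaled counts (adjusted p 0.0548 to 0.103) and Lss without JQ1 1 or 2 or vehicle 1 or 3 or with length-scaled counts (adjusted p 0.102 to 0.828). With length-scaled counts Cyp7a1 was at 0.20 and Lss at -0.28.

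Stress and clock genes had few calls. Klf10 (ENSMUSG00000037465), an immediate early gene that answers TGF-beta and feeding, was at 12.7, 8.94 and 11.9 CPM in the vehicle libraries and 5.05, 4.1 and 3.8 CPM after JQ1 (log2 fold change -1.37 ± 0.20, adjusted p = 0.000679). Nr1d1, the clock repressor REV-ERB alpha, was at 6.55, 11.2 and 11.6 CPM and 3.18, 3.8 and 5.02 CPM (log2 fold change -1.30 ± 0.25, adjusted p = 0.00563), and the small heat shock protein Hspb1 at 17.2, 14.9 and 8.06 CPM and 5.05, 4.78 and 4.77 CPM (log2 fold change -1.45 ± 0.25, adjusted p = 0.00422). No group overlapped in these 3 genes, which were 1 of 19 immediate early, 1 of 19 clock and 1 of 2 called of 21 heat shock genes. Genes of the unfolded protein and integrated stress responses had 0 of 24 called by edgeR, with 19 of 24 below vehicle (median -0.12). Without 1 library this number moved, and 5 were called as lower without vehicle replicate 2 and 2 without JQ1 replicate 1. Their most abundant members Hspa5 (-0.33 ± 0.12) and Hsp90b1 (-0.34 ± 0.11) did not pass. Here edgeR lost Klf10 with length-scaled counts (adjusted p 0.186), Nr1d1 without JQ1 2 or vehicle 3 or with length-scaled counts (adjusted p 0.0551 to 0.0662) and Hspb1 without JQ1 2 (adjusted p 0.0558).

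Among the largest falls outside these groups, Adgrv1, a giant adhesion receptor, was at 2.33, 3.67 and 6.22 CPM in the vehicle libraries and 0.346, 0.304 and 0.162 CPM after JQ1 (log2 fold change -3.86 ± 0.49, adjusted p = 0.000152). The leucine-rich repeat gene Lrtm1 (ENSMUSG00000045776) was at 10.2, 14.6 and 12 CPM and 2.56, 2.58 and 2.75 CPM (log2 fold change -2.22 ± 0.21, adjusted p = 6.44e-06), and the aspartic protease Ctse (ENSMUSG00000004552), cathepsin E, at 29.1, 24.4 and 24.7 CPM and 7.95, 9.57 and 11.2 CPM (log2 fold change -1.45 ± 0.15, adjusted p = 1.74e-05). All 3 were without overlap. The gene model Gm10297 had 126 reads over the vehicle libraries and 0 over the JQ1 libraries, which makes it at least 36.9-fold lower against a floor of 3 reads per group. Markers of tissues next to the liver were low. Cela1, an elastase of the exocrine pancreas, fell (-0.86 ± 0.16), with the summed pancreas markers at 25.51 to 28.09 CPM in the vehicle and 14.59 to 21.11 CPM in the JQ1 libraries, and Fabp2, of gut epithelium, fell as well (-0.78 ± 0.10), with gallbladder and gut markers at 60.77 to 69.16 and 37.22 to 40.78 CPM. Each was the only gene called in its list and made up most of its sum, so each sum repeats the fall of its gene. Cela1 alone was at 27.2, 23.6 and 26 CPM in the vehicle and 10.8, 18.1 and 13.4 CPM in the JQ1 libraries. Prss2, another pancreas marker, was at 0.069 CPM in JQ1 replicate 1 and at 0 CPM in the other libraries. In the fit of both organs Cela1 was at a mean of 25.6 CPM in vehicle kidneys. The part of other tissue in these levels was not tested. Endothelial genes had 1 of 19 lower (Ehd3, -0.35 ± 0.09), with a summed level of 436.2 to 459.4 CPM in the vehicle and 389.3 to 409.2 CPM in the JQ1 libraries. Stellate cell and matrix genes had 1 of 29 higher (Sparc, 0.37 ± 0.09) and 1 lower (Timp2, -0.45 ± 0.11). Bile duct genes had 0 of 7 called and red cell genes 0 of 10 called by edgeR, with haemoglobin sums that overlapped (3002, 6619 and 9028 CPM in the vehicle libraries and 7596, 7771 and 3184 CPM after JQ1). Single fits of edgeR lost Cela1 with length-scaled counts (adjusted p 0.0658), Ehd3 without any 1 library or with length-scaled counts (adjusted p 0.0813 to 0.189), Sparc without JQ1 1 or 2 or vehicle 2 or 3 or with length-scaled counts (adjusted p 0.0771 to 0.153) and Timp2 without JQ1 1, 2 or 3 or vehicle 2 or 3 or with length-scaled counts (adjusted p 0.0513 to 0.229).

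Kidneys of JQ1 and vehicle groups at the same time point served to show where the liver response differed. In 1 edgeR fit over the 12 libraries of both organs the response differed between organs for 104 genes (0.615% of those tested), more positive in liver for 70 and more negative for 34. In that fit liver had 323 genes called (1.91%) and kidney 272 (1.61%). For the metallothionein Mt2 the difference passed (log2 fold change -2.75 ± 0.25 in liver and -0.00 ± 0.24 in kidney, adjusted p of the difference 0.00866), and so it did for Slc39a4 (log2 fold change -1.29 ± 0.15 in liver and 1.40 ± 0.54 in kidney, adjusted p of the difference 0.0279), whose kidney value was not called. Cyp2e1 changed in opposite directions, called in each organ (log2 fold change -0.67 ± 0.11 in liver and 0.59 ± 0.11 in kidney, adjusted p of the difference 0.000508), as did Csad (log2 fold change 0.57 ± 0.12 in liver and -0.85 ± 0.12 in kidney, adjusted p of the difference 0.000408). Dio1 fell in both and by more in kidney (log2 fold change -0.84 ± 0.13 in liver and -2.43 ± 0.19 in kidney, adjusted p of the difference 0.00284). Klf10 (log2 fold change -1.37 ± 0.26 in liver and 0.40 ± 0.23 in kidney, adjusted p of the difference 0.0246) and Lrtm1 (log2 fold change -2.22 ± 0.27 in liver and 2.04 ± 0.63 in kidney, adjusted p of the difference 0.00376) fell in liver and were not called in kidney. In kidney Lrtm1 was at a mean of 0.059 CPM in the vehicle and 0.26 CPM in the JQ1 group, and Slc39a4 at 0.117 and 0.328 CPM. Their kidney fold changes rest on few reads, so no direction in kidney is read from them. For H2-Aa (log2 fold change -3.16 ± 0.46 in liver and -2.75 ± 0.40 in kidney, adjusted p of the difference 0.918), H4c8 (log2 fold change 4.85 ± 0.32 in liver and 2.98 ± 0.24 in kidney, adjusted p of the difference 0.0933), Gm20634 (log2 fold change 2.27 ± 0.17 in liver and 1.41 ± 0.16 in kidney, adjusted p of the difference 0.174) and Fbp1 (log2 fold change 0.69 ± 0.09 in liver and 0.73 ± 0.09 in kidney, adjusted p of the difference 0.98) a difference between the organs did not pass. With single libraries left out the organ difference of Slc39a4 was lost without kidney JQ1 replicate 1 or 3 or kidney vehicle replicate 1 or 3 (adjusted p up to 0.183) and that of Klf10 without kidney JQ1 replicate 3, kidney vehicle replicate 3, liver JQ1 replicate 2 or 3 or liver vehicle replicate 1 or 3 (up to 0.0911), while Mt2, Cyp2e1, Csad, Dio1 and Lrtm1 kept theirs in these 12 fits. With the replicate block Mt2 (adjusted p = 0.144) and Slc39a4 (adjusted p = 0.0555) lost it, and by limma-voom Slc39a4 (adjusted p = 0.286), Klf10 (adjusted p = 0.157) and Lrtm1 (adjusted p = 0.0772). Whether kidney and liver libraries with equal numbers share an animal is not stated in the labels.

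**Figure D5:**
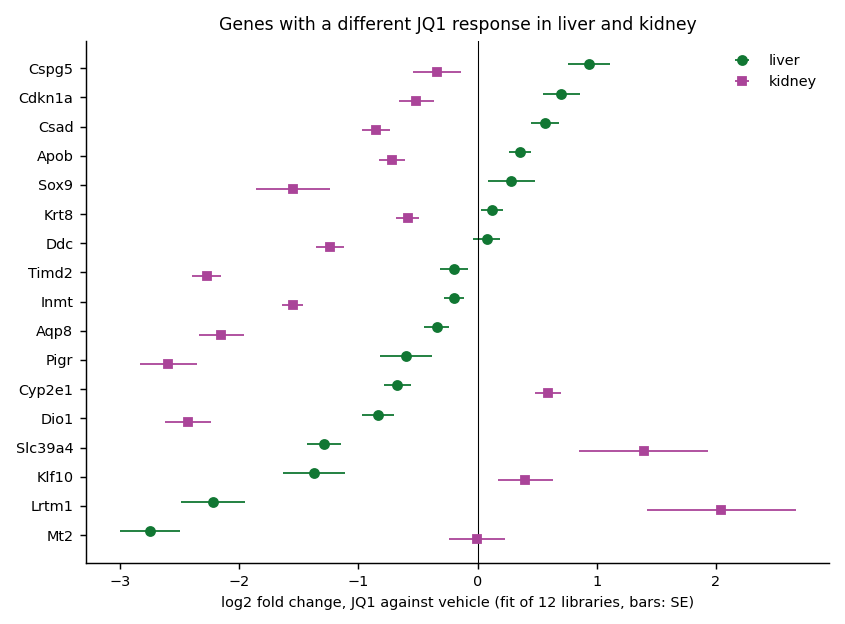
Points give the log2 fold change, JQ1 against vehicle, in liver (circles) and kidney (squares) from the fit of 12 libraries, 1 row per named gene with an adjusted p below 0.05 for the difference between organs, and bars are standard errors. Spink1 and Slc35f1, which also passed, are not shown. Mt2 lies at -2.75 in liver and at the line of no change in kidney, Cyp2e1 and Csad have opposite signs in the organs, and Dio1 lies below the line in both.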

How the data were processed

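RNA-seq libraries of liver, 3 from JQ1-treated and 3 from vehicle control mice, were compared, with 6 kidney libraries of the same groups used for the difference between organs. The authors used fastp 0.20.1 for trimming and Salmon 1.10.0 for quantification. Salmon's estimated count of reads and its TPM (abundance corrected for transcript length) were deposited for 147833 transcripts. Salmon divides reads shared by several transcripts by a model, so single genes of families with near-identical copies (Mup, Serpina1, Cyp2c, Cyp3a, Ugt2b, histone, haemoglobin and ribosomal protein genes, H2-Q6 and H2-Q7, Ftl1) are uncertain. Submitters' notes name build mm10 and the study's methods a later GENCODE release, so no gene coordinates are given, and promoters come from RefSeq on GRCm38.p6. Gene names were read from the transcript names.

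Estimated counts were summed over 54778 gene symbols (74 of which carry several identifiers) and rounded to whole numbers. The 6 liver libraries were fitted alone in edgeR 4.0.16 (R 4.3.3) with TMM scaling, filterByExpr (minimum count 10, minimum total 15), robust dispersions and the quasi-likelihood F-test, two-sided, with Benjamini-Hochberg adjustment over 13609 genes. Every adjusted p is from edgeR, and rose and fell are used of genes for which it was below 0.05. Errors of log2 fold changes are standard errors. The organ difference was the interaction term in a fit of 12 libraries (16899 genes). Correlations between libraries were over log2 CPM of all genes tested. Counts over a gene list are of members that passed filterByExpr, which a gene high in 1 group alone can pass. Ratios of reads carry exact intervals that cover counting error only. The code was tested on simulated counts.

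The comparison, the 56 gene lists and the members were chosen with earlier results of these data known. The text names, among called genes with non-overlapping groups and a mean of 2 CPM or more in 1 group, the 12 that rose most and the 12 that fell most, the 10 lowest adjusted p, the 5 highest called levels in each direction, up to 4 called members of each list (3 of the most abundant where none was called), genes set by name such as Hexim1 and Myc, and up to 8 with the clearest organ difference. Cyp2c29, Cyp2c40, Cyp2c54, Gulo, Gstt1, Por, Aldh1a1, H2az1, Susd4, Cyp2u1, Slc30a1, Umod, Kap, Slc34a1, Prss2, Cd79a, Jchain, Trbc2, Saa1, Saa2, Hamp2 and the class II genes that were not called were named after their values were seen. A few genes these rules pick are not reported here. Alternatives were RLE and upper-quartile scaling, other filters, DESeq2 1.42.0, limma-voom (limma 3.58.1), length-scaled counts, a replicate block, the fit of both organs, omission of mitochondrial genes and omission of each library.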

Additional observations from a re-analysis of the deposited data

Results flagged for a closer look

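The response to JQ1 differed between liver and kidney, by the edgeR interaction test, for 19 of the genes named. Values are the liver minus the kidney log2 fold change. It was -2.74 for Mt2, -2.69 for Slc39a4, -4.27 for Lrtm1, -1.77 for Klf10 and -1.26 for Cyp2e1, which were lower after JQ1 in liver. In kidney Slc39a4 was at a mean of 0.117 CPM in the vehicle and 0.328 CPM in the JQ1 group, and Lrtm1 at 0.059 and 0.26 CPM. The kidney part of both differences rests on few reads. The difference was 1.42 for Csad, 1.28 for Cspg5, 1.22 for Cdkn1a and 1.07 for Apob, which were higher after JQ1 in liver. Dio1 (1.60) and the immunoglobulin transporter Pigr (1.99) were lower in both organs and more so in kidney. In the remaining genes the liver value was small and the difference lay in kidney, namely the ferritin receptor Timd2 (2.07), the methyltransferase Inmt (1.35), the water channel Aqp8 (1.81), the decarboxylase Ddc (1.31), the keratin Krt8 (0.71) and the transcription factor Sox9 (1.83). In the 12 edgeR fits that left out 1 library each, 13 of the 19 genes kept the call throughout, but by limma-voom it was lost for Aqp8 (adjusted p = 0.0992), Spink1 (0.0773) and Lrtm1 (0.0772) of the 13 and for Sox9 (0.347), Cspg5 (0.0991), Klf10 (0.157) and Slc39a4 (0.286), and with the replicate block for Mt2 (0.144), Cspg5 (0.111) and Slc39a4 (0.0555). Krt8 lost it without liver JQ1 replicate 2 (adjusted p 0.0564). Klf10 and Slc39a4 kept it in 6 and 8 of the fits. Pigr kept it only without kidney JQ1 replicate 1 or 2 (adjusted p up to 0.0775), Cspg5 only without kidney JQ1 replicate 1, kidney vehicle replicate 1, liver JQ1 replicate 3 or liver vehicle replicate 1 (up to 0.118), and Sox9 only without kidney vehicle replicate 3, liver JQ1 replicate 1 or 3 or liver vehicle replicate 1 (up to 0.0749).

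For the trypsin inhibitor Spink1 the difference was -7.26 and for Slc35f1 8.62. Both rest on libraries without a read of the gene in 1 of the groups, and such fitted values depend on the prior count and give no bound. In liver Spink1 was at a mean of 0.844 CPM in the vehicle group and 0 after JQ1, and Slc35f1 at 0 and 1.26 CPM. In kidney Spink1 was at a mean of 807 CPM in the vehicle and 1017 CPM in the JQ1 group, and Slc35f1 at 5.76 and 2.66 CPM. The part of kidney RNA in the liver reads of Spink1 was not tested. Calls of an organ difference were few, 0.615% of the genes tested, and 14 to 36 genes were more negative in liver when any 1 of the 12 libraries was left out.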

How the results depend on the processing

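The liver total of 375 calls was 367 with RLE scaling, 399 with upper-quartile scaling, 377 with at least 1 CPM in 3 libraries, 481 by DESeq2, 312 by limma-voom, 323 in the fit of both organs and 392 without mitochondrial genes. It was 167 (76 higher, 91 lower) with length-scaled counts and 703 (344 higher, 359 lower) without a filter on low counts. Leaving out single libraries gave 153 to 370 calls, 53 to 207 higher and 98 to 171 lower. The share of calls that were higher was 49.3%, and 34.6% without JQ1 replicate 2 and 38.8% without vehicle replicate 3. The organ difference of 104 genes was 105 with RLE scaling, 63 by limma-voom (44 more positive and 19 more negative in liver) and 60 to 106 with 1 library left out (42 to 70 and 14 to 36). Libraries of the same number did not deviate together (correlations of -0.0719, -0.0115 and -0.0154), so the numbers were not taken as pairs. With the replicate block 247 genes were called, 107 higher and 140 lower, and in the organ difference 71, of which 50 were more positive and 21 more negative in liver. Of 123 named genes called, 60 lost their call with length-scaled counts, 21 by limma-voom, 35 with the replicate block, 48 in the fit of both organs, 33 to 62 with 1 library left out (62 without JQ1 replicate 2, 53 without vehicle replicate 3) and 0 of 120 with a value by DESeq2, and 1 of the 60 turned its direction (Lss, -0.277). Genes that were not called and lay near no change also turned: Hba-a2 to 0.026 by limma-voom and 0.036 with the block, and Iigp1 to 0.000 without a filter and 0.002 without mitochondrial genes. With single libraries left out the sign turned for Brd3 (-0.064 to 0.087), Brdt (-0.333 to 0.247), Calr (-0.242 to 0.029), Cox6c (-0.061 to 0.080), Hba-a1 (-0.383 to 0.298), Hba-a2 (-0.330 to 0.330), Hbb-bs (-0.303 to 0.441), Iigp1 (-0.030 to 0.044), Lcn2 (-1.730 to 0.060), Nfkbia (-0.208 to 0.014) and Upk3b (-0.572 to 0.383). Lists with 0 called had 1 called in single edgeR fits: interferon response without vehicle replicate 2 or JQ1 replicate 1, BET proteins and elongation without JQ1 replicate 1, genes lowered by BET inhibitors and bile duct genes without vehicle replicate 1, and the nuclear respiratory chain without JQ1 replicate 3. The causes were not tested. Changes under 2-fold and genes of a few CPM are the least certain at 12678283 to 17529910 reads per library and 3 libraries per group.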

Other observations

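Among other metabolic genes, Nnmt, which methylates nicotinamide, changed by -1.79 ± 0.40 in liver after JQ1, with 5.02, 5.27 and 3.05 CPM in the vehicle and 0.553, 1.29 and 2.02 CPM in the JQ1 libraries, and the hexokinase Hk2 by -1.39 ± 0.32. Both belong to small sets in which few genes moved, 1 higher and 2 lower of 21 in sulfur and methyl metabolism and 0 higher and 2 lower of 20 in glycolysis. Autophagy and lysosome genes had 2 of 31 higher, Map1lc3b (0.33 ± 0.09) and Ctsl (0.34 ± 0.09), and 1 lower, the kinase Ulk1 (-0.51 ± 0.12). Of the genes of this paragraph edgeR lost Nnmt without JQ1 1 or 2 or vehicle 1 or 2 or with length-scaled counts (adjusted p 0.058 to 0.15), Hk2 without JQ1 2 or 3 or vehicle 1 or 3 or with length-scaled counts (adjusted p 0.0503 to 0.173), Map1lc3b without any 1 library or with length-scaled counts (adjusted p 0.0559 to 0.221), Ctsl without JQ1 1, 2 or 3 or vehicle 1 or 3 or with length-scaled counts (adjusted p 0.06 to 0.246) and Ulk1 without JQ1 2 or 3 or vehicle 1 or 2 or with length-scaled counts (adjusted p 0.0728 to 0.429). The odorant-binding protein gene Obp2a fell from 11.5, 31.4 and 25.2 CPM to 1.66, 2.2 and 3.32 CPM (log2 fold change -3.26 ± 0.51, adjusted p = 0.0466). Its edgeR call was lost without JQ1 1, 2 or 3 or vehicle 3 (adjusted p 0.132 to 0.229).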
